A study of Mus musculus with 3 samples.

Results

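The 46 genes described here carry the signal of bacterial lipopolysaccharide (LPS) and of cytokines in macrophages. They comprise 11 sensor genes, 4 adaptor genes, 6 IRAK and TRAF genes and 4 genes of the TAK1 complex. A further 5 belong to the MAP kinase branch and 6 to the IKK and IKK-related group, with 4 JAK and 6 STAT genes. The sensor genes are Toll-like receptor (TLR) genes, Cd14 and Ly96. All 46 were found among 21887 protein-coding mouse genes by symbol and were listed by their role in these pathways, with earlier results of these data known. They were examined for regions bound by EZH2, the subunit of polycomb repressive complex 2 that methylates histone H3 at lysine 27, by chromatin immunoprecipitation and sequencing (ChIP-seq). The EZH2 libraries came from bone marrow-derived macrophages of adult C57BL/6 mice, grown with M-CSF, which either received LPS for 2 h (LPS) or were left untreated (NT). Each condition had 1 EZH2 library, and a single input library was not analysed here, so no difference below has a replicate check. The labels give neither the number of mice nor any pooling, and the stimulated track carries the name TLR, which was taken to be the LPS sample because it is the only stimulated EZH2 sample.

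Toll-like receptors recognise microbial molecules, and TLR4 with its partner MD-2 binds LPS. Adaptors of the MyD88 and TRIF type pass the signal to IRAK kinases, TRAF ubiquitin ligases, TAK1, the IKK complex and MAP kinases, which leads to NF-kB activity and cytokine genes. Cytokine and interferon receptors signal through JAK kinases, which phosphorylate STAT transcription factors. Polycomb complex 2 is best known for holding developmental genes silent and often sits at CG-rich promoters.

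Each deposited interval has a summit with a whole-number value, called the summit value here, whose unit and scaling are not given in the sources used here. An interval was assigned to a gene where it came within 2.5 kb of either annotated end (mm10). The LPS library listed 4651 intervals with summit values from 7 to 100 (median 16), and the NT library 9643 intervals with values from 11 to 253 (median 27). Read depth is unknown, so values of the libraries are not on a shared scale, and a missing LPS interval does not show that EZH2 was lost. The assay sums over many cells, so fewer cells with EZH2 and less EZH2 per cell cannot be told apart. EZH2 intervals do not measure expression and cannot check the labelled cell type. Of 7 macrophage marker genes 0 had an LPS interval, against 16.2% of all protein-coding genes. An NT interval was at 2 of them (Spi1 and Mertk, 28.6%), against 38.2%. Of 12 markers of other cell types Pdgfra alone had one (8.33% in each library), with summit values of 41 in LPS and 98 in NT.

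The promoters of these genes differed widely in CG content, and 6 are shown because they span the outcomes. They are the 250 bases before the annotated start (RefSeq, GRCm38.p6, the assembly of mm10), read 5′ to 3′ on the strand of the gene, with each CG dinucleotide in capitals. Irak2 and Map2k1 had an interval at the start in both libraries, Myd88 in NT alone, and Tbk1 and Jak2 in neither, while Tlr9 had an NT interval at its 3' end and no CG in these bases.
Irak2, chr6:113638217-113638466, plus strand: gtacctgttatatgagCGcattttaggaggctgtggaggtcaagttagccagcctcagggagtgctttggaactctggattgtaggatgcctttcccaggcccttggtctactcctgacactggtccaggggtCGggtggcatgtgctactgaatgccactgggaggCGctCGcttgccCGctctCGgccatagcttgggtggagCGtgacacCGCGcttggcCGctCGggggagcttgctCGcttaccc
Map2k1, chr9:64253606-64253855, minus strand: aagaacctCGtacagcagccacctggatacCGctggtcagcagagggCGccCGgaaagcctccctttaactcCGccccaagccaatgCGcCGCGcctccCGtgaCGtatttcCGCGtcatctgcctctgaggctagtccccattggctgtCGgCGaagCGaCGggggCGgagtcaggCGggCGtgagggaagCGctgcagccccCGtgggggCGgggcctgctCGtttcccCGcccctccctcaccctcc
Myd88, chr9:119340019-119340268, minus strand: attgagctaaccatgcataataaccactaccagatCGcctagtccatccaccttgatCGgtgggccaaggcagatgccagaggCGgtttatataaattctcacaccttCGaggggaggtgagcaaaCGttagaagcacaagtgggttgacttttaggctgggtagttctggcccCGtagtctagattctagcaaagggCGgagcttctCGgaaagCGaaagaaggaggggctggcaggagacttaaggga
Tbk1, chr10:121586795-121587044, minus strand: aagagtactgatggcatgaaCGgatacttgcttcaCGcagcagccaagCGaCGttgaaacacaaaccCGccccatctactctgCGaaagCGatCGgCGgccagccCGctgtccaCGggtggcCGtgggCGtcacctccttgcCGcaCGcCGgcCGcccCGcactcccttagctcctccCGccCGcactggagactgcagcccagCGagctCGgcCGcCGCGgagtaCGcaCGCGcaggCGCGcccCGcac
Jak2, chr19:29251553-29251802, plus strand: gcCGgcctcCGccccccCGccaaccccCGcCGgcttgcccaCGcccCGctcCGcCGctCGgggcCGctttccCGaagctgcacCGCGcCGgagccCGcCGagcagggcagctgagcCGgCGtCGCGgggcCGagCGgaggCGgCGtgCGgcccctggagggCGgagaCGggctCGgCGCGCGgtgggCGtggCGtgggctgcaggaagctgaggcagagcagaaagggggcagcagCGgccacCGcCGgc
Tlr9, chr9:106222348-106222597, plus strand: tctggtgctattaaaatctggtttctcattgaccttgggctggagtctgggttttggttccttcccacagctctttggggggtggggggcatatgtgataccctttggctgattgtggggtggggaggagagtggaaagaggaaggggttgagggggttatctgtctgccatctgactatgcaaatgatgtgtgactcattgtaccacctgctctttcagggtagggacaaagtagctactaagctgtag

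EZH2 intervals were listed at 4 of the 46 genes in LPS (8.7%) and at 27 in NT (58.7%). Over all protein-coding genes the shares were 16.2% in LPS and 38.2% in NT. Both libraries had an interval at 4 of the 46 signalling genes, which were Irak2, Map2k1, Jak1 and Jak3, against 3419 of 21887 genes (15.6%). NT alone had one at 23 of the 46 genes, against 4943 of 21887 genes (22.6%). LPS alone had one at 0 of the 46 genes, against 117 of 21887 genes (0.535%). Among genes with an NT interval, 4 of 27 signalling genes (14.8%) also had an LPS interval, and 40.9% of all such genes did. Among stronger intervals the NT share was not above that of all genes. When only as many of the highest NT intervals were kept as LPS had, 9 of the 46 genes (19.6%) had an NT interval, against 20.5% of all genes, and Irak2 and Jak1 then had an interval in LPS alone.

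**Figure D1:**
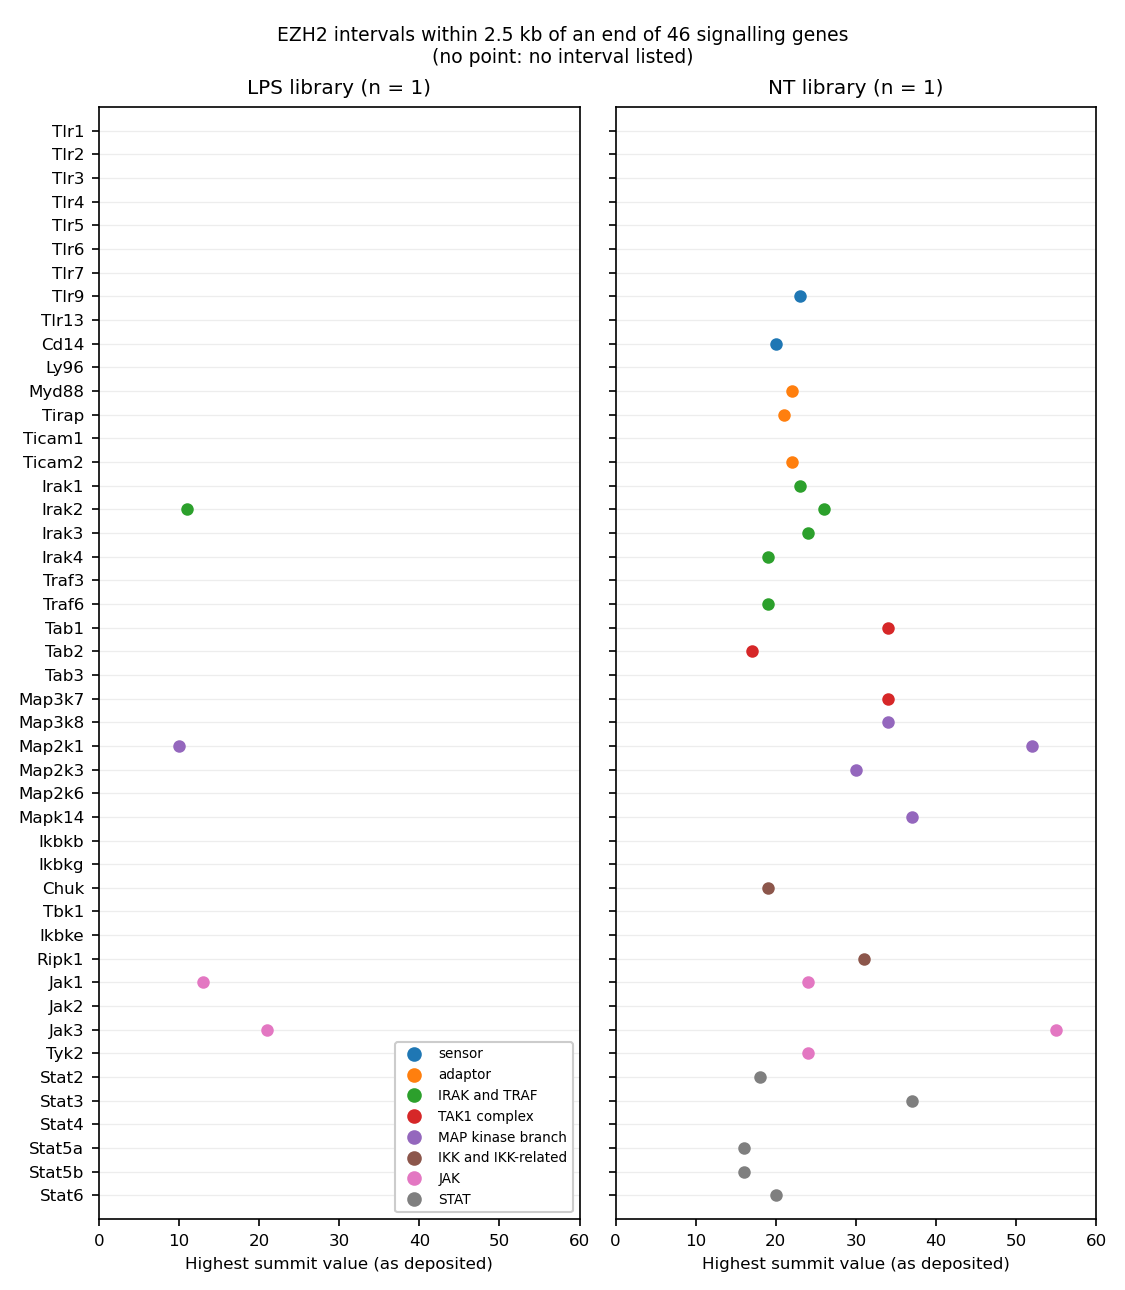
Highest summit value (x axis, as deposited) of the EZH2 intervals within 2.5 kb of an end of each of the 46 genes, for LPS on the left and NT on the right, coloured by role. A gene with no point had no listed interval. Points appear for 4 genes in LPS, from 10 to 21, and for 27 genes in NT, from 16 to 55.

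Of the 11 sensor genes 0 had an LPS interval, against 16.2% of all genes, and 2, Tlr9 and Cd14, an NT interval (18.2%), against 38.2% of all genes. Tlr9, the endosomal receptor for CpG DNA, lies from 106222598 to 106226876 on chromosome 9, and its NT interval from 106225424 to 106226885 had a summit value of 23. That summit lay 443 bp from the 3' end and 3835 bp from the start, so the interval is not a promoter interval. Cd14, the co-receptor that hands LPS to TLR4, had an NT interval with a value of 20 that covered most of this short gene, from 36725424 to 36726860 on chromosome 18, and its strand is not in the table used here.

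The receptor for LPS itself stood far from any interval. The nearest to Tlr4 was 3331.4 kb away in LPS and 1701.4 kb away in NT. Ly96, which encodes MD-2, had its nearest intervals at 68.9 kb in LPS and 22.6 kb in NT. Of the remaining sensors, Tlr1 and Tlr6, which pair with Tlr2 for bacterial lipopeptides, Tlr2, Tlr3 (double-stranded RNA), Tlr7 (single-stranded RNA) and Tlr13 (bacterial ribosomal RNA) had no interval in either library inside the gene or within 2.5 kb. Tlr5, the flagellin receptor, had an NT interval inside the gene with a low value of 13, whose summit lay 3713 bp downstream of the start, and its nearest LPS interval was 190.7 kb away.

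An LPS interval was at 0 of the 4 adaptor genes, against 16.2% of all genes, and an NT interval at 3 (75%), against 38.2%. Myd88, used by nearly all TLRs, had a summit value of 22 in NT, Tirap, which bridges MyD88 to TLR4 and TLR2, had 21, and Ticam2 (TRAM), which bridges TRIF to TLR4, had 22. These 3 values are close together and below the NT median of 27. Ticam1, which encodes TRIF, had no interval, and the nearest lay 119.7 kb away in LPS and 26.3 kb away in NT.

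Of the 6 IRAK and TRAF genes, 1 had an LPS interval (16.7%), against 16.2% of all genes, and 5 an NT interval (83.3%), against 38.2%. At Irak2, a kinase of the MyD88 complex (chromosome 6, 113638467 to 113695026), the interval over the start had a summit value of 11 in LPS and 24 in NT. The LPS interval ran from 113638031 to 113638928 and the NT interval from 113638005 to 113638960, and the summits lay 16 bp apart, both within 18 bp of the start. A second NT interval of 26 reached the 3' window of Irak2, but its summit was nearer to an end of Tatdn2. NT alone had intervals at Irak1 (23), Irak4 (19), the kinase that starts the cascade, Irak3 (24), which encodes the inhibitory IRAK-M, and Traf6 (19), the ubiquitin ligase downstream of IRAKs. Irak3 had its nearest LPS interval 6.2 kb from the gene, with a value of 14. Traf3, which links TRIF and MyD88 to interferon genes, had none in its windows, but a strong interval nearest to an end of its neighbour Amn lay 6.0 kb away in LPS (58) and 3.4 kb away in NT (105).

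In the TAK1 complex 0 of 4 genes had an LPS interval, against 16.2% of all genes, and 3 an NT interval (75%), against 38.2%. Map3k7, the TAK1 kinase, and Tab1, its activating partner, had NT values of 34, and Tab2, a ubiquitin-binding partner, had 17. Tab3, a relative of Tab2 on the X chromosome, had no interval nearby, the nearest being 7651.2 kb away in LPS and 7650.9 kb away in NT. Its promoter held 24 CG dinucleotides, as many as that of Map2k1.

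Among the signalling genes with an interval in both libraries, Map2k1 had the lowest ratio of LPS to NT summit value. It encodes MEK1, the kinase upstream of ERK, and lies from 64185769 to 64253605 on chromosome 9 with its start at the higher coordinate. The interval over its start had a summit value of 10 in LPS and 52 in NT, a ratio of 0.192. The LPS value was near the lowest listed (7), with 5.07% of LPS intervals below it. The interval was 819 bp wide in LPS and 1415 bp wide in NT, and the LPS interval lay wholly inside the NT one. For the 3419 genes listed in both, the ratio of highest values had a median of 0.491, with the central 95% from 0.273 to 0.792, and 10 genes including Map2k1 were at or below its ratio. Of 861 such genes with an NT value between 42 and 62, a range set after its value was seen, 6 were, Map2k1 among them. Map2k1 was already known to stand low in these data, no replicate was made, and the error of the ratio is not known.

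In the MAP kinase branch 1 of 5 genes had an LPS interval (20%), against 16.2% of all genes, and 4 an NT interval (80%), against 38.2%. The genes other than Map2k1 had NT intervals alone or none. Map3k8 (Tpl2), the kinase that activates MEK1 after LPS, had an NT value of 34 and Map2k3, an activator of the p38 kinases, had 30. At Mapk14, which encodes p38 alpha, neighbouring NT intervals had values of 37 and 19. The summit of the first lay 45 bp before the start of Mapk14 and 24 bp from an end of Slc26a8, so it lies in the windows of both genes. Map2k6, the other main p38 activator, had no interval, with the nearest more than 61 kb away in LPS (61.4 kb) and in NT (61.2 kb).

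Of the 6 IKK and IKK-related genes, 0 had an LPS interval, against 16.2% of all genes, and 2 an NT interval (33.3%), against 38.2%. Ripk1, a kinase that joins TRIF and TNF receptor signals to NF-kB, had an NT value of 31, and Chuk (IKK alpha) had 19, both in NT alone. Ikbkb (IKK beta), Ikbkg (NEMO), Tbk1 and Ikbke had no interval in either library. For Ikbke the nearest lay 8.8 kb away in LPS (16) and 8.5 kb away in NT (56), nearest to an end of Rassf5. For Tbk1, the kinase of the interferon branch, the nearest lay 53.9 kb away in LPS and 54.1 kb away in NT.

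Of the 4 JAK genes, 2 had an LPS interval reaching a window (50%), against 16.2% of all genes, though at Jak3 its summit lay outside. An NT interval was at 3 (75%), against 38.2%. Jak1 (chromosome 4, 101151974 to 101265282) is used by interferon and many interleukin receptors, and its start interval had a summit value of 13 in LPS and 24 in NT, a ratio of 0.542. Jak3, which pairs with the common gamma chain of interleukin receptors, had at its start an NT interval of 23 and no LPS interval. The interval that puts Jak3 among genes with both libraries lay beyond its 3' end, with values of 21 in LPS and 55 in NT. Its summits were 2672 bp from that end in LPS and 2960 bp in NT, outside the window, and nearer to an end of B3gnt3, and the interval also reached the windows of Insl3. Counting summits in place of intervals left 3 genes in LPS and 27 in NT, and the shares over all genes are not given for these counts. Tyk2, a kinase of interferon receptors, had 24 in NT alone, and Jak2 had no interval, with the nearest 571.7 kb away in LPS and 20.9 kb away in NT.

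Among the 6 STAT genes 0 had an LPS interval, against 16.2% of all genes, and 5 an NT interval (83.3%), against 38.2%. Stat3, the factor activated by interleukin-6 and interleukin-10, had the highest value of the group at 37, Stat6, which acts downstream of interleukin-4, had 20, and Stat2, a part of the interferon-activated ISGF3 complex, had 18. Stat5a and Stat5b are neighbours on chromosome 11 and shared 1 NT interval, from 100860174 to 100861229, with a value of 16, the lowest NT value within 2.5 kb of an end of the 46 genes. Its summit lay 1303 bp inside Stat5a and 1650 bp before the start of Stat5b. A further NT interval with a value of 23 lay inside Stat5b, 7995 bp downstream of its start. Stat4, a factor of interleukin-12 signalling used mainly in lymphocytes, had no interval within 2.5 kb, and the nearest were 12.2 kb away in LPS (8) and 12 kb away in NT (22).

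Most intervals sat over gene starts. The strand was known for 38 of the 46 genes, and an interval came within 2.5 kb of the start at 3 of these in LPS, against 14.2% of all 17492 genes of known strand, and at 22 in NT, against 35.4%. The 3 genes in LPS were Irak2, Map2k1 and Jak1. In NT the interval covered the start itself at 20 genes, reaching a median of 299 bp upstream (74 to 624 bp) and 749.5 bp downstream (166 to 1160 bp), and it reached farther downstream at 18 of them. The median NT summit lay 177 bp downstream of the start for the signalling genes and 193 bp for all genes of known strand. The exceptions were Stat5a and Stat5b, whose shared interval missed both starts. Of the 27 genes with an NT interval, 10 had one that also lay within 2.5 kb of an end of another protein-coding gene, such as Irak4 with Pus7l and Ripk1 with Serpinb6a.

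**Figure D2:**
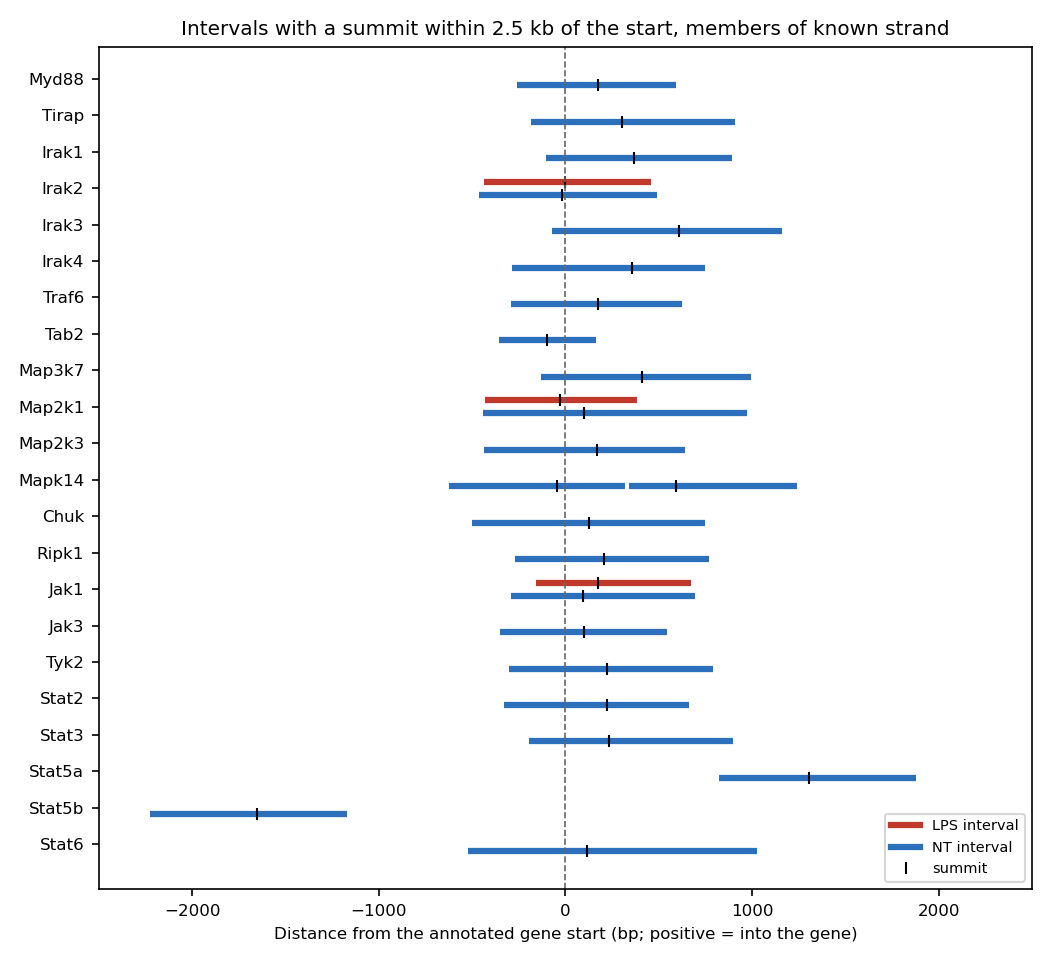
Extent of each interval whose summit lay within 2.5 kb of the annotated start (x axis, bp, positive into the gene), for genes of known strand, with LPS intervals above NT intervals and black ticks at the summits. LPS intervals appear at Irak2, Map2k1 and Jak1, each within the extent of its NT interval.

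At all 4 places where intervals of both libraries met, the LPS interval lay wholly within the NT interval. How often this holds over all genes is not given here. The LPS values at Map2k1 (10), Irak2 (11) and Jak1 (13) were below the LPS median of 16, and that beyond Jak3 (21) was above it. Widths were 898 bp in LPS and 956 bp in NT at Irak2, and 830 bp in LPS and 988 bp in NT at Jak1. Beyond the 3' end of Jak3 they were 2367 bp in LPS and 2551 bp in NT. At the starts the LPS summit value divided by the NT one gave 0.458 for Irak2, 0.542 for Jak1 and 0.192 for Map2k1. Taken over the highest values of each gene, as for all genes above, the ratio was 0.423 for Irak2, because of its second NT interval.

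The low LPS count was read against NT summit value, because at ends of all protein-coding genes weak NT intervals met an LPS interval less often than strong ones. The 46 genes rested on 29 distinct NT intervals with a median value of 23, and 4 of these (13.8%, 95% Wilson interval 5.5 to 30.6%) had an LPS partner. At ends of all protein-coding genes 42.4% of 7813 NT intervals did (41.3 to 43.5%), at a median value of 27. In the range of 16 to 37 and under 2 kb in width, which holds 27 of the 29 and was set after their values were seen, 2 met one (7.41%, 2.06 to 23.4%), against 23.7% of 5011 intervals of all genes. Those 2 were at Irak2 and Jak1, and with NT values from 21 to 25 they made 2 of 10 intervals (20%), against 22.6% of all. None of the 9 intervals from 16 to 20 met one, against 17.3% of all, nor did the 2 from 26 to 30, against 34.4%. None of the 6 intervals with values from 31 to 37 met an LPS interval, while 48.5% of 1172 intervals of all genes in that range did. Its edge at 37 is that of the range set after the values were seen. These value ranges were not matched for width, and here the median width was 1111.5 bp for the 6 and 1403 bp for the 1172. These 6 lay at Map3k7, Tab1, Map3k8, Ripk1, Stat3 and Mapk14. The 2 intervals over 50, at Map2k1 and beyond Jak3, both met one, as did 96.1% of all intervals from 51 to 75. Wilson intervals cover counting error only and take the intervals as independent, which those of a chosen list need not be. The genes were chosen with earlier results known, so the Wilson intervals are no test of a difference from all genes. Whether depth of the LPS library sets these counts was not tested.

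**Figure D3:**
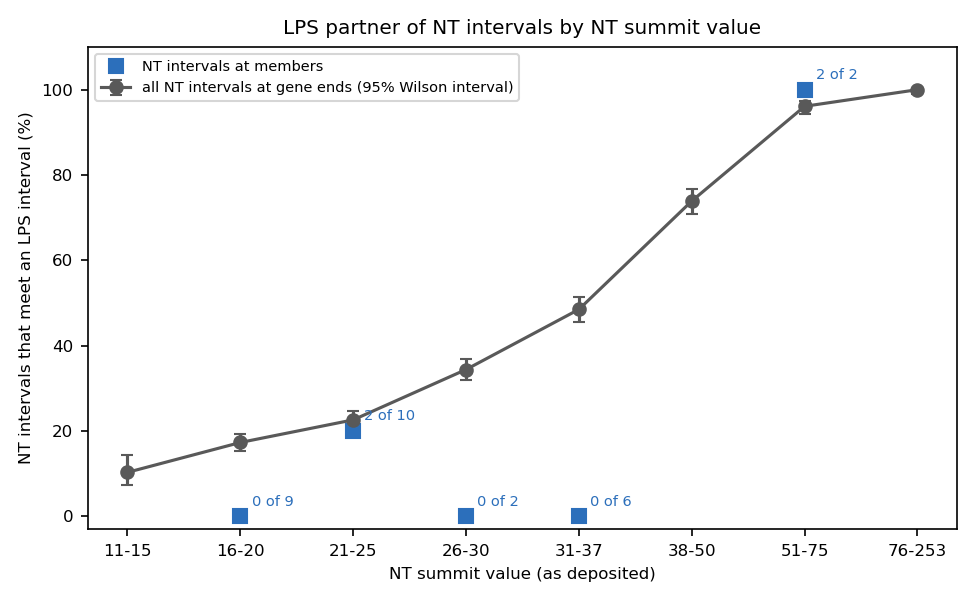
Share of NT intervals that met an LPS interval (y axis, %) by NT summit value (x axis), for all NT intervals at ends of protein-coding genes (grey, with 95% Wilson intervals) and for those at the 46 genes (blue, with counts). Value ranges are not matched for width, and their edge at 37 is that of the range set after the values were seen. The share over all genes goes from 10.3% at values of 11 to 15 to 100% above 75, and at the 46 genes 0 of 9 met one at 16 to 20, 2 of 10 at 21 to 25, 0 of 2 at 26 to 30, 0 of 6 at 31 to 37 and 2 of 2 at 51 to 75.

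CG content before the start was set beside the intervals. A promoter within 2.5 kb of the annotated start was in the sequence table for 36 of the 46 genes, and the CG dinucleotides in its 250 upstream bases were counted. The promoter start was not always the annotated start, and lay 615 bp from it at Map3k7 and 695 bp at Tlr3. The median was 13.5 for the 22 genes with an NT interval and 10 for the 14 with none, while over all protein-coding genes it was 18 with an NT interval and 4 with none. Intervals at either gene end were counted, so a counted interval need not lie at the promoter. With 0 to 4 CG, 0 of 5 signalling genes had an LPS interval and 1 an NT interval (20%), against 3.46% in LPS and 7.06% in NT over all genes. That gene was Tlr9, whose interval lay at its 3' end. With 5 to 9 CG, 1 of 8 had an LPS interval (12.5%) and 5 an NT interval (62.5%), against 13.2% in LPS and 29.4% in NT over all genes. The gene with the LPS interval was Jak3, where that interval lay beyond the 3' end. With 10 to 19 CG, 2 of 14 had an LPS interval (14.3%) and 11 (78.6%) an NT interval, against 21.3% in LPS and 54.9% in NT over all genes. With 20 to 29 CG, 1 of 4 had an LPS interval (25%) and 3 an NT interval (75%), against 26.4% in LPS and 68.6% in NT over all genes. With 30 or more, 0 of 5 had an LPS interval and 2 an NT interval (40%), against 30.5% in LPS and 73.8% in NT over all genes. Those 5 were Tab2 (33) and Mapk14 (30), with NT intervals, and Traf3 (49), Jak2 (37) and Tbk1 (31), with none. The sequences of Jak2 and Tbk1 shown above are thus denser in CG than those of Irak2 (12) and Myd88 (9), which had intervals.

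Sensors had the fewest CG, with a median of 4.5 over 6 genes, and Tlr9 had 0 and Tlr1 1. The TAK1 complex had the most, with a median of 28 over 3 genes. Stat4 with 1 and Ikbke with 4 were other CG-poor genes without an interval, whereas Stat6 and Irak3 with 6 and Stat5a with 5 had an NT interval. These counts are a description of a short window and were not tested.

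**Figure D4:**
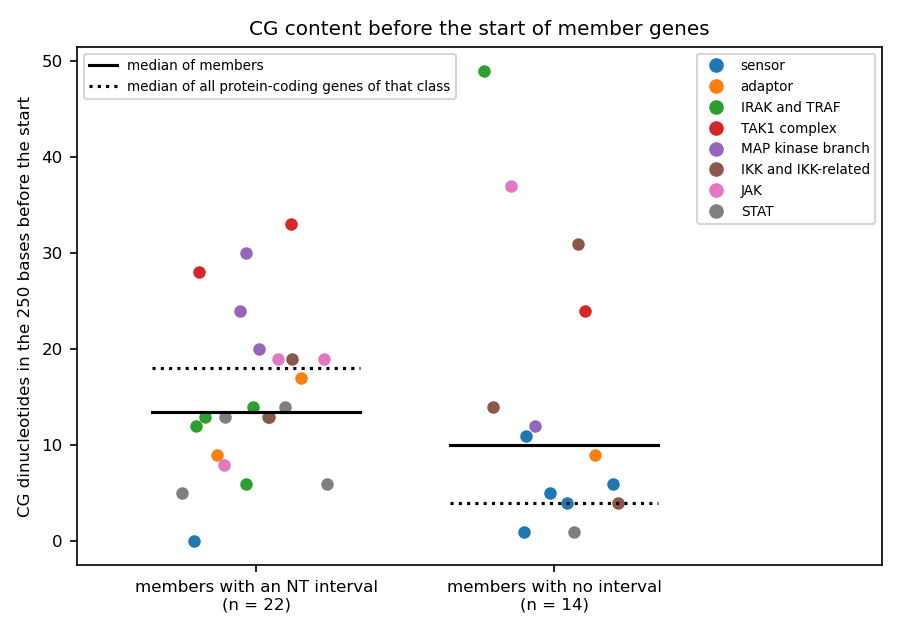
CG dinucleotides in the 250 bases before the promoter start (y axis) for signalling genes with an NT interval (left, n = 22) and with no interval (right, n = 14), coloured by role. Solid lines are the medians of these genes (13.5 and 10) and dotted lines those of all protein-coding genes of the same class (18 and 4). Traf3, Jak2 and Tbk1 are the highest points among genes with no interval.

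Letter motifs were counted on both strands of the same 250 bases. The GC box GGGCGG, which contains a CG, was present in 24 of 36 signalling genes (66.7%) and in 43.3% of all promoters. The STAT-type motif TTCNNNGAA was present at Myd88 and Chuk, or 5.56%, against 6.63% of all. A match is a string of letters and not a bound site.

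Related genes of these pathways are given from lists made by function, and differences between lists were not tested. Over all protein-coding genes the shares were 16.2% in LPS and 38.2% in NT. Of 28 JAK-coupled cytokine receptors, 2 had an LPS interval (7.14%) and 12 an NT interval (42.9%). The 2 with both were Osmr, the oncostatin M receptor (18 in LPS, 43 in NT), and Epor, the erythropoietin receptor (20 in LPS, 34 in NT), and the interferon receptor genes Ifnar1 (36) and Ifngr1 (35) had NT intervals alone. Of 28 TLR accessory proteins and modulators, 2 had an LPS interval (7.14%) and 16 an NT interval (57.1%). Sarm1, a TIR domain protein, had 17 in LPS and 44 in NT, Peli2, a ubiquitin ligase of the Pellino family, had 12 in LPS and 28 in NT, and in NT alone Traf2 had 42 and Tollip, Cnpy3 and Lrrfip1 had 38.

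Of 27 other MAP kinase cascade genes, 5 had an LPS interval (18.5%), against 16.2% of all genes, and 16 an NT interval (59.3%), against 38.2%. Mapk11 and Mapk12 encode p38 isoforms, are neighbours and share an interval, and their highest values were 48 in LPS and 100 in NT. Mapk13, also a p38 isoform, had 13 in LPS and 30 in NT, against NT intervals alone at Mapk14. Map3k5 had 12 in LPS and 18 in NT. Map3k2 had 39 in NT alone.

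Genes further down the pathway are given beside the 16.2% in LPS and 38.2% in NT over all genes. Of 11 NF-kB subunits and inhibitors, 3 had an LPS interval (27.3%) and 10 an NT interval (90.9%), with Nfkb1 in LPS alone (17), Nfkbia at 24 in LPS and 42 in NT, Nfkbie at 19 in LPS and 31 in NT, and Relb in NT alone (38). Of the 8 genes of the Socs family and Cish, feedback inhibitors of JAKs, 3 had an LPS interval and 5 an NT interval, with Socs2 at 31 in LPS and 89 in NT, Socs1 at 18 in LPS and 35 in NT, and Socs3 at 22 in LPS and 30 in NT. Of 10 LPS-induced chemokine genes, 4 had an LPS interval and 0 an NT interval. Those were Cxcl10 (23), Ccl5 (18) and the overlapping pair Ccl4 (24) and Ccl3 (11).

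**Figure D5:**
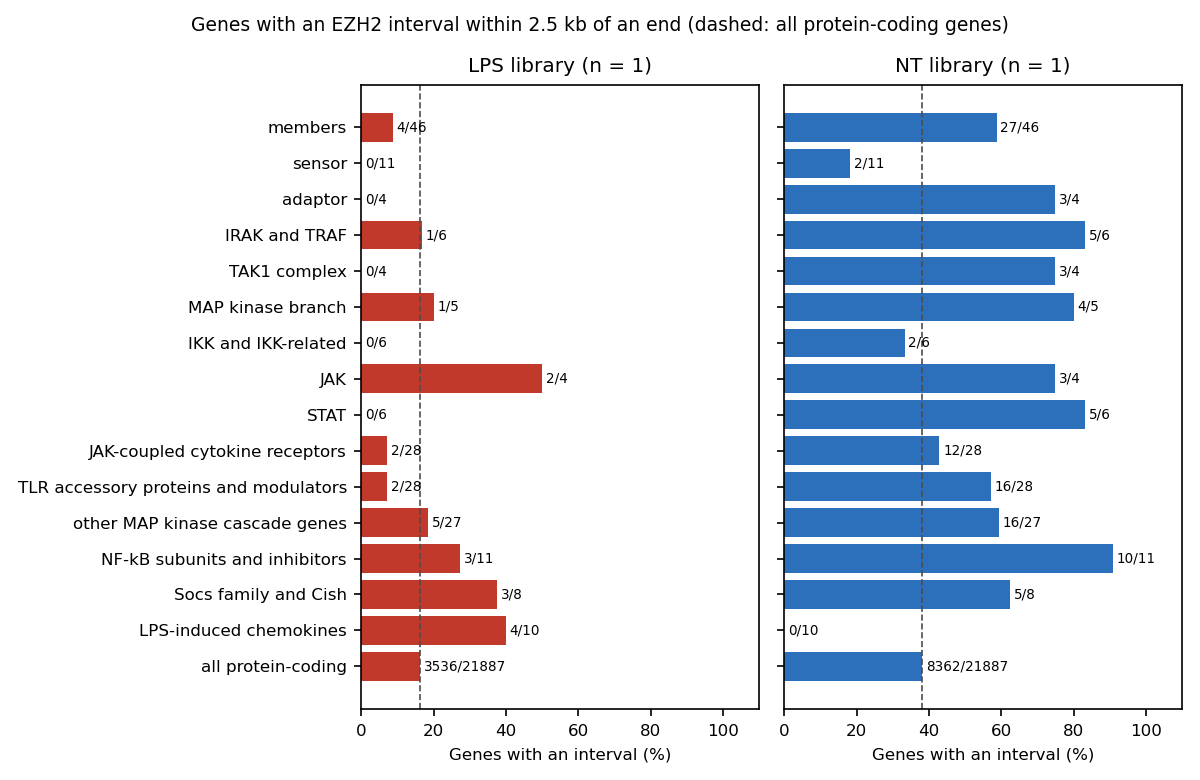
Share of genes with an EZH2 interval within 2.5 kb of an end (x axis, %) for the 46 signalling genes, their 8 roles, 6 related lists and all protein-coding genes, for LPS on the left and NT on the right. Numbers beside the bars are genes with an interval of genes listed, and dashed lines mark all protein-coding genes (16.2% in LPS, 38.2% in NT). The signalling genes lie below the line in LPS and above it in NT.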

How the data were processed

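EZH2 was profiled by ChIP-seq in 3 samples, which were 1 EZH2 library with LPS, 1 without and 1 input. Per the submitters' processing notes, BWA, SICER and mm10 were used, with no version or role stated. The authors deposited 5 tracks, of which the interval and summit tracks of both EZH2 libraries were used. The deposited score of a summit is a whole number of unknown unit, and scaling, depth, duplicate removal and use of the input are not given in the sources used here, so precision from depth cannot be stated. BED starts are printed 1-based.

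Genes came from a RefSeq table of GRCm38.p6. Strand and promoters came from a RefSeq promoter table of that build, which holds 38 of the 46 genes. Intervals were assigned with pandas 2.3.3 by an overlap of at least 1 bp with windows of 2.5 kb around either gene end, a step tested on simulated data. With 1 library per condition no test was possible. Genes and lists were chosen with earlier results of these data known. All genes with an interval are named, and of related lists those with an LPS interval and the highest NT values, except 1 gene that is not reported here. Cxcl11 is not protein-coding in the table and was left out. Alternatives were other windows, stricter intervals, list length, overlap, summits and the nearest gene.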

Additional observations from a re-analysis of the deposited data

How the results depend on the processing

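No paired analysis was possible because only 1 library stands for each treatment. Of 57 recomputed values, 43 were near the main value (counts no more than 1.5 times apart, other values equal) and 14 were not. The 43 include the LPS count under the cut NT list, which could not change, so the tally is no measure of robustness. Assigning intervals to the nearest gene was chosen after seeing the data and left 3 genes in LPS and 26 in NT. Keeping only the stronger intervals (value not under the library's median), 1 gene had an LPS interval (2.17%), against 9.75% of all genes. An NT interval was then at 9 (19.6%), against 21.3%, with 1 gene in both and 8 in NT alone. Keeping only the 4651 highest NT intervals, 9 had an NT interval (19.6%), against 20.5% of all genes, 2 both, 7 NT alone and 2 LPS alone. Shares over all genes are not given for the nearest-gene counts, nor here for both libraries or 1 library alone. Both settings use fewer intervals by construction. Median highest values became 11 in LPS with 1 kb windows and 24 in NT with 5 kb windows. The median ratio of 0.402 became 0.458 with 1 kb windows, which drop the Jak3 3' interval and the second NT interval of Irak2. Dividing 0.402 by the median over shared intervals gave 0.805. Covered bases in NT became 34.5 kb over gene bodies, against 32.6 kb, and the median NT summit lay 208 bp downstream of the start with 5 kb windows. Unknown depth limits every LPS count.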
